A study of Mus musculus with 8 samples.

Results

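Peroxisomal oxidation and peroxisome biogenesis were examined through 27 genes, 15 for enzymes and carriers of peroxisomal lipid oxidation and 12 for peroxins, the proteins that build the organelle. The genes were taken by symbol from the deposited table of counts for 55573 genes, under a rule that names them by role. They were chosen with earlier results of these data known. The samples were hearts of male mice, 24 weeks old, on the C57BLKS/J strain, with 4 db/db and 4 db/m libraries, each prepared with 3 µg of input RNA. The db/db mouse is homozygous for a mutation of the leptin receptor gene that it carries in every tissue, and it becomes obese and diabetic. The db/m mouse carries the same mutation on one chromosome, so both groups hold the allele. Whether every library is a different mouse is not stated in the labels. The p-values thus reflect the variation among these 8 libraries, part of which may be technical.

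Peroxisomes shorten very long-chain, branched and dicarboxylic fatty acids that mitochondria handle poorly. ABCD transporters bring the acyl-CoA in, an oxidase that makes hydrogen peroxide opens each round of beta-oxidation, a bifunctional enzyme and a thiolase complete it, and the shortened chain leaves as a carnitine ester for mitochondria. Phytanic acid, whose methyl branch blocks beta-oxidation, is first cut by alpha-oxidation. Peroxins insert the membrane proteins, receive matrix proteins by their targeting signals, pass them through the membrane and recycle the receptors, and members of the Pex11 family elongate the organelle before it divides. In rodents many of the oxidation genes are targets of the lipid-sensing nuclear receptor PPAR-alpha.

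Library totals ran from 19541757 to 22249911 counts. Values are given as CPM, the counts of a gene scaled to a common library size, and were compared between genotypes with edgeR's quasi-likelihood test, adjusted by the Benjamini-Hochberg method over all 17411 genes that passed the filter on low counts. The 8 heart muscle markers checked were present in all libraries, at a summed 29551 to 35899 CPM in db/db and 27728 to 33778 CPM in db/m. This sum is mostly Myh6, the heavy chain of cardiac myosin, whose 20479 CPM in db/m replicate 3 was its highest value. Of the 8 markers 6 were lowest in that library, among them Myl2, a ventricular light chain, at 116.9 CPM against 760 to 999 CPM in db/db and 594 to 781 CPM in the other db/m libraries. Both db/m replicates 1 and 3 stood apart. All 11 adipocyte markers lay higher in them than in the other 6 libraries, with a summed 552 and 1863 CPM against 24.5 to 38.1 CPM in db/db and 30.4 and 30.7 CPM in the other db/m libraries. The 7 atrial markers did the same, with 1933 and 4542 CPM against 34.4 to 135 CPM in db/db and 19.5 and 102 CPM in the other db/m libraries. Of the 7 liver markers, summed at 0.368 to 1.24 CPM in db/db and 0.491 to 89.0 CPM in db/m, Alb had 0 to 4 counts a library, and Cyp2e1 gave the high values, with 592 and 2144 counts in db/m replicates 1 and 3. The main results are therefore also given without db/m replicates 1 and 3, and the part of these cells in the results was not tested. In whole tissue, fewer cells of a type and less RNA per cell cannot be told apart.

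Most of the 27 genes had slightly more counts in db/db than in db/m hearts, and none passed the test over all genes. As the genes were chosen with earlier results of these data known, the shares that follow only describe them. Of the 27, 26 passed the filter, and 23 of those had a positive log2 fold change, as did 47.7% of all genes tested. The median log2 fold change was 0.27 over the 26 genes and -0.02 over all genes tested. Over the 8 heart muscle markers it was 0.26, with 6 positive, and -0.05 without db/m replicates 1 and 3, where the 26 genes had 0.14. The part of these libraries in these values was not tested. By edgeR with adjustment over all genes 0 of the 26 were called, where 0.00574% of all genes were. An unadjusted p under 0.05 was reached by 5 of the 26, or 19.2%, against 13.0% of all genes. Of these, 4 were higher and 1 was lower in db/db, against 5.12% and 7.84% of all genes. The groups did not overlap in 4, or 15.4%, against 9.65%. Those 4 were all higher in db/db, where 5.04% of all genes were separate and higher and 4.61% separate and lower. DESeq2 called 2 of the 26, Ech1 and Hsd17b4, and 2.21% of all genes that it gave an adjusted p. In limma-voom with sample weights 0 were called and 8 had an unadjusted p under 0.05, against 0.747% and 14.2% of all genes.

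**Figure D1:**
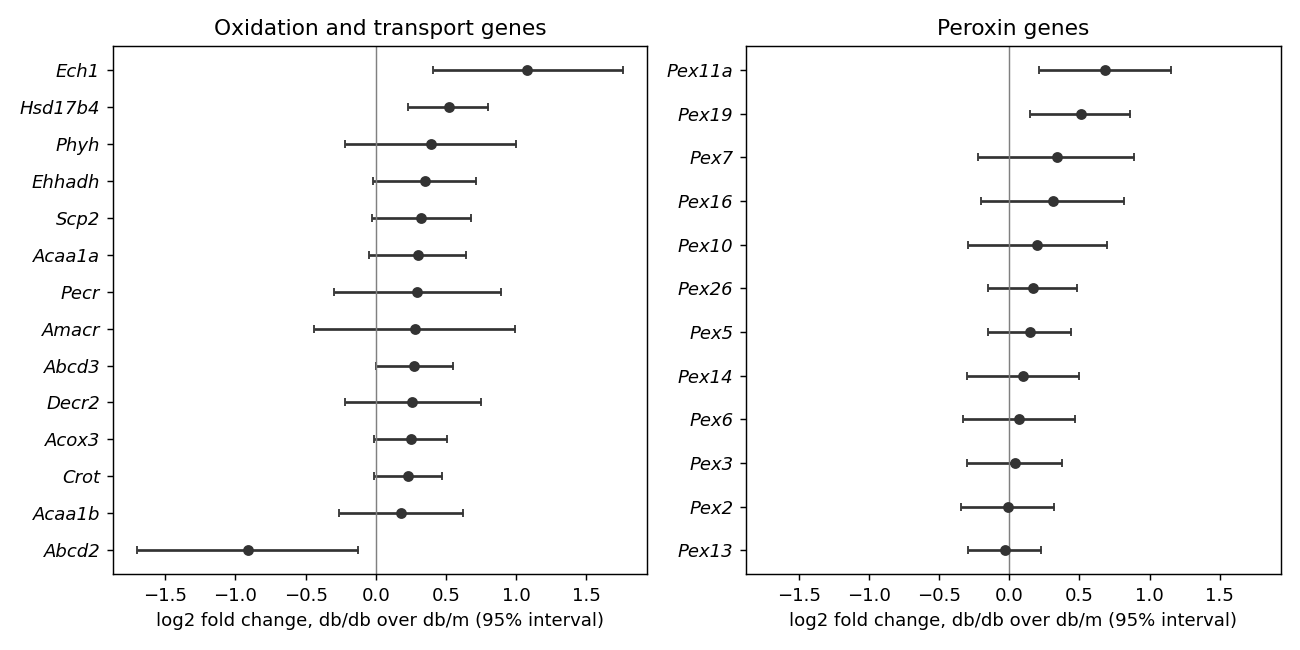
Log2 fold change of each tested gene, db/db over db/m (points), with the 95% interval from edgeR (bars), for 14 oxidation and transport genes on the left and 12 peroxins on the right. Ech1 has the highest value at 1.08 and Abcd2 the lowest at -0.91, and most intervals include 0.

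The enzymes of the core beta-oxidation cycle were all positive, 6 of 6 measured, with a median log2 fold change of 0.31. Hsd17b4, the bifunctional enzyme that hydrates and dehydrogenates straight and branched chains, had 59.2, 70.4, 53.6 and 71.1 CPM in db/db replicates 1 to 4, against 40.4, 46.3, 44.0 and 47.1 CPM in db/m replicates 1 to 4. Every db/db library lay above every db/m library. The log2 ratio of db/db to db/m was 0.52 (SE 0.13), with an adjusted p of 0.216 in edgeR and 0.0219 in DESeq2. Without db/m replicates 1 and 3 it was 0.44 (SE 0.13; edgeR adjusted p = 0.238).

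Ehhadh, the other bifunctional enzyme, had 27.6, 22.5, 19.1 and 25.2 CPM in db/db, against 15.3, 22.3, 18.9 and 17.9 CPM in db/m. The groups overlapped through db/db replicate 3, and the log2 fold change was 0.35 (SE 0.16; edgeR adjusted p = 0.402). It was 0.23 when db/m replicates 1 and 3 were left out. Acox3, an acyl-CoA oxidase of branched chains, averaged 39.0 ± 3.17 CPM in db/db and 32.8 ± 2.70 CPM in db/m (SD, n = 4 each), with a log2 fold change of 0.25 (SE 0.12).

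The thiolases that end each round are Acaa1a, Acaa1b and the long product of Scp2, which also gives rise to a lipid carrier protein. Acaa1a had 35.2, 42.3, 29.3 and 36.2 CPM in db/db, against 31.0, 28, 23.6 and 33.9 CPM in db/m, and the groups overlapped (log2 fold change 0.30, SE 0.16). Acaa1b averaged 4.66 ± 0.581 CPM in db/db and 4.11 ± 0.494 CPM in db/m (SD, n = 4 each; 0.18, SE 0.20). Per kilobase of exon, the mean level was 8.10 CPM for Acaa1a and 2.37 CPM for Acaa1b in db/db hearts, and 6.60 and 2.09 CPM in db/m hearts. The length used here is that of all annotated exons of a gene, 4414 bases for Acaa1a and 1962 for Acaa1b. Their longest transcripts are closer in length, at 1762 and 1689 bases. Not scaled by length, Acaa1a averaged 35.8 CPM in db/db and 29.1 CPM in db/m, beside the 4.66 and 4.11 CPM of Acaa1b. Both genes lie on chromosome 9, and their longest transcripts are 96.6% identical over 1428 aligned bases, so reads could be split between them and each value is uncertain. Acaa1a also shares 290 of its 4414 exonic bases with a gene on the opposite strand, and Acaa1b shares 224 of its 1962 with another such gene. The strand setting of the counting is not given in the sources used here.

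Scp2 had 184, 203, 188 and 176 CPM in db/db, against 155, 188, 112 and 146 CPM in db/m. Its log2 fold change was 0.32 (SE 0.16; edgeR adjusted p = 0.418), and 0.16 (SE 0.12) without db/m replicates 1 and 3. A pseudogene, Scp2-ps2, is 99.6% identical to Scp2 and holds 12628 counts over the 8 libraries, beside 28257 for Scp2 itself. With the counts of such copies added to their genes, the log2 fold change of Scp2 was 0.36.

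The promoters of Acaa1a and Acaa1b are shown because this pair of near-identical genes differs in level, and that of Pex11a because it had the largest fold change among the 12 peroxins. The stretches are from RefSeq on GRCm38.p6, the assembly also called mm10, and lie upstream of the RefSeq start of each gene. The Acaa1a and Acaa1b stretches end 1 base before that start and the Pex11a stretch 53 bases before it. The first exon of Acaa1a in the table used here begins 1618 bases further upstream than its RefSeq start. They hold only bases that no annotated exon covers. Capitals mark GC boxes, whose letters are GGGCGG, and CCAAT boxes. Both were searched for on both strands.
Acaa1a, chr9:119341160-119341293, plus strand: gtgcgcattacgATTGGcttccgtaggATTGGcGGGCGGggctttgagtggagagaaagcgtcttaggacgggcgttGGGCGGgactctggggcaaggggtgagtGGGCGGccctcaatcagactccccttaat
Acaa1b, chr9:119157094-119157343, minus strand: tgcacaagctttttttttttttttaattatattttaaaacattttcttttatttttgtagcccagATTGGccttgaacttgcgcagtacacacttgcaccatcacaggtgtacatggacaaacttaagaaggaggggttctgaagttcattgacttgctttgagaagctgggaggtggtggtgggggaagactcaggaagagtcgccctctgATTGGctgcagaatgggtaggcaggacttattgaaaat
Pex11a, chr7:79743184-79743381, minus strand: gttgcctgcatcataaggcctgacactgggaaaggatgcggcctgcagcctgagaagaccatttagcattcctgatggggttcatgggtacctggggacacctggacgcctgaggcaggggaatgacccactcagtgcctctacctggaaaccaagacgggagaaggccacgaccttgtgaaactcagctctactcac
The Acaa1a stretch holds 3 GC boxes and 2 CCAAT boxes, and the Acaa1b stretch 0 and 2. The Pex11a stretch holds 0 of either, and an exon of the neighbouring gene Wdr93 lies in the remainder of that upstream window. The stretches are of unlike length, at 134 bases for Acaa1a, 250 for Acaa1b and 198 for Pex11a. An annotated exon of Acaa1a itself lies in the remainder of its upstream window. Outside the stretch shown, the whole 300-base window of Pex11a does hold a GC box and is counted with it below.

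RefSeq promoter windows of 300 bases, 250 before the start and 50 after it, were at hand for 22 of the 27 genes, in 26 windows. The GC box stood in 18 of the 26 windows, or 69.2%, and in 35.7% of all 32851 windows. It was as frequent in the windows of the oxidation genes, 9 of 13, as in those of the peroxins, 9 of 13. The windows of these genes were also richer in CG dinucleotides, with a median of 16.5 a window against 7.0 in all windows, and the part of this in the GC box count was not tested. The CCAAT box stood in 38.5% of these windows and 37.4% of all windows, and the TATA box, TATAAA, in 11.5% and 13.6%. A direct repeat of AGGTCA with 1 free base between the copies, which PPAR-alpha is known to bind with its partner, was found in 0 of the 26 windows with up to 2 mismatches allowed on both strands, and in 3.86% of all windows. No match says only that these letters are not in these windows.

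Among the auxiliary enzymes for double bonds, Ech1, a dienoyl-CoA isomerase found in peroxisomes and mitochondria (ENSMUSG00000053898, chromosome 7, 28825217 to 28832247, mm10), was the most abundant of the 27 genes and had the largest fold change. It had 944, 1185, 697 and 1075 CPM in db/db replicates 1 to 4, against 446, 653, 219 and 522 CPM in db/m replicates 1 to 4. The lowest db/db library, replicate 3, lay just above the highest db/m library, replicate 2. The log2 fold change was 1.08 (SE 0.30), a 2.12-fold higher level, with an adjusted p of 0.252 in edgeR and 0.0269 in DESeq2. It was 0.73 (SE 0.20; edgeR adjusted p = 0.222) without db/m replicates 1 and 3, and from 0.86 to 1.30 without each single library.

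Ech1 took 50.1%, 56.1%, 43.6% and 54.1% of the summed CPM of the 15 oxidation and transport genes in db/db, against 37.7%, 42.8%, 29.0% and 39.3% in db/m. The ranges of the genotypes did not overlap, but db/db replicate 3 stood close to db/m replicate 2. The summed level of the other 14 was 903 to 940 CPM in db/db and 536 to 873 CPM in db/m.

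Decr2, which reduces dienoyl-CoA in peroxisomes, and Pecr, which reduces trans-2-enoyl-CoA there, overlapped between genotypes. Decr2 had 18.8, 13.7, 15.8 and 15.2 CPM in db/db, against 14.9, 12.9, 8.23 and 16.9 CPM in db/m (log2 fold change 0.26, SE 0.22). Pecr had 4.2, 4.36, 4.15 and 4.16 CPM in db/db, against 3.52, 4.66, 1.94 and 3.66 CPM in db/m (0.29, SE 0.27). Pecr shares 175 exonic bases with another annotated gene, so its value is uncertain. In both, db/m replicate 3 was the lowest of the 8 libraries, and without db/m replicates 1 and 3 their log2 fold changes were 0.09 and 0.01.

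The genes for branched chains had the same lowest library. Phyh, the hydroxylase that opens alpha-oxidation of phytanic acid, had 379, 323, 368 and 329 CPM in db/db, against 271, 354, 122 and 318 CPM in db/m. Amacr, the racemase that turns branched acyl-CoA into the form the oxidases accept, had 41.4, 40.1, 30.7 and 39.1 CPM in db/db, against 32.4, 42.2, 11.7 and 38.7 CPM in db/m. In each, db/m replicate 3 lay far below the other 7 libraries, which overlapped between genotypes. The log2 fold change of Phyh was 0.39 (SE 0.27) in all libraries and 0.05 (SE 0.11) without db/m replicates 1 and 3. That of Amacr was 0.28 (SE 0.32) and -0.10 (SE 0.13), so its direction turned with those libraries left out.

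Hacl1, the lyase that cuts 2-hydroxyacyl-CoA in alpha-oxidation, was the one gene that did not pass the filter. It had 3, 12, 9 and 2 counts in db/db, against 10, 5, 4 and 4 counts in db/m, and no comparison was made. An annotated gene on the same strand, Gm49387, shares 1540 of the 4945 exonic bases of Hacl1 and itself has 0 counts. How the counting treated reads that lie in both genes is not given in the sources used here, so the level of Hacl1 in these hearts cannot be read from its count.

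**Figure D2:**
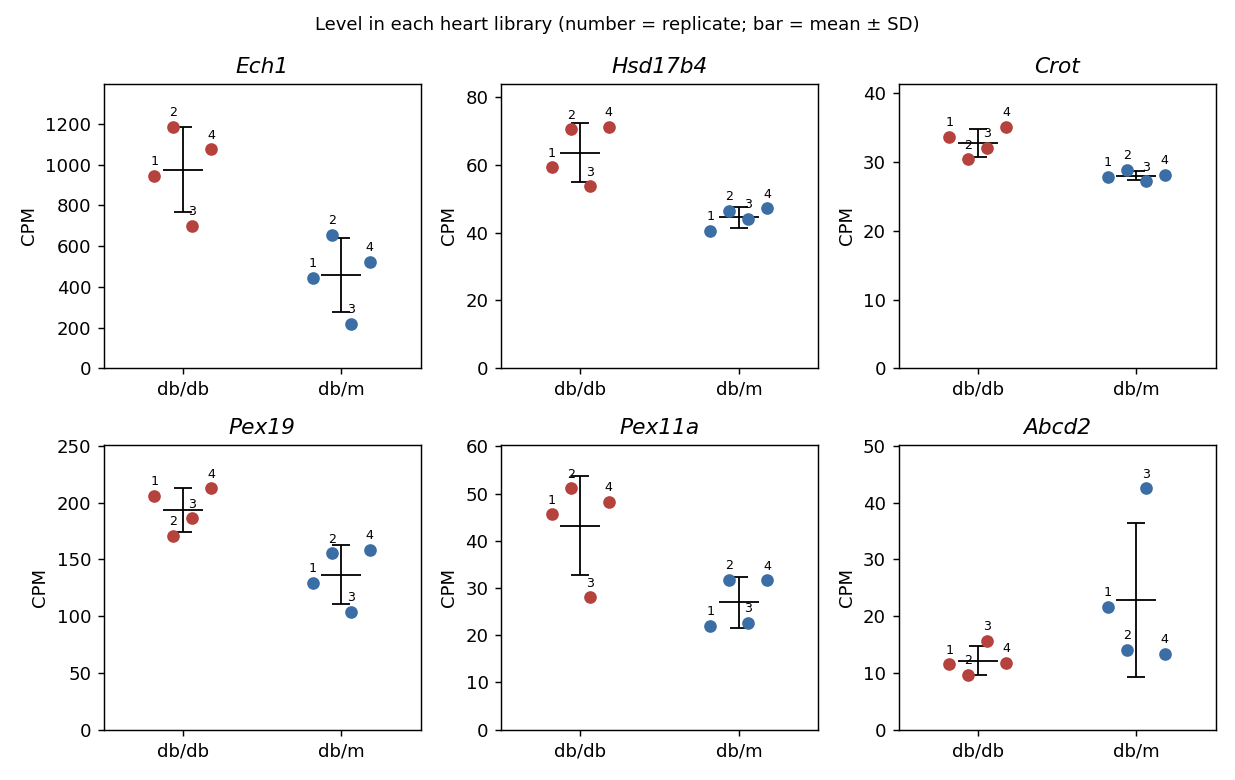
CPM of 6 genes in each library, db/db on the left and db/m on the right of each panel, with the replicate number at each point and bars for mean ± SD (n = 4 each). The groups do not overlap for Ech1, Hsd17b4, Crot and Pex19, and the Abcd2 panel shows db/m replicate 3 at 42.5 CPM and replicate 1 at 21.7 CPM above the rest.

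Of the transporters, Abcd3 and Abcd2 pointed in opposite directions. Abcd3, which carries branched and long-chain acyl groups and bile acid precursors, had 104, 124, 103 and 120.5 CPM in db/db, against 88.3, 97.3, 84.2 and 104 CPM in db/m. Its highest db/m library, replicate 4, matched the lowest db/db libraries, and the log2 fold change was 0.27 (SE 0.12; edgeR adjusted p = 0.386). It was 0.16 when db/m replicates 1 and 3 were left out.

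Abcd2, a carrier of very long-chain and polyunsaturated acyl groups (ENSMUSG00000055782, chromosome 15, 91145871 to 91191799, mm10), was the one oxidation or transport gene with a negative value. It had 11.5, 9.67, 15.7 and 11.7 CPM in db/db, against 21.7, 14.0, 42.5 and 13.3 CPM in db/m. The 2 highest values lay in db/m replicates 1 and 3, whose adipocyte and atrial markers were high, while db/m replicates 2 and 4 lay within the range of the db/db libraries. The log2 fold change was -0.91 (SE 0.35; edgeR adjusted p = 0.342), -0.42 (SE 0.20) without db/m replicate 3 and -0.18 (SE 0.19) without both. Abcd2 is known to be abundant in adipose tissue, and the part of adipocyte RNA in this value was not tested.

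Crot, which turns medium-chain acyl-CoA into carnitine esters for export, had 33.7, 30.4, 32.1 and 35.1 CPM in db/db, against 27.9, 28.9, 27.2 and 28.1 CPM in db/m. The groups did not overlap, the spread within db/m was small, and the log2 fold change was 0.23 (SE 0.11; edgeR adjusted p = 0.402). It was 0.20 (SE 0.11) without db/m replicates 1 and 3.

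Among the 12 peroxins, Pex11a and Pex19 had the largest fold changes. Pex11a (ENSMUSG00000030545, chromosome 7, 79735957 to 79743131, mm10) promotes peroxisome elongation and is one of the few peroxins known to respond to PPAR-alpha in rodents. It had 45.6, 51.1, 28 and 48.3 CPM in db/db, against 22, 31.7, 22.6 and 31.6 CPM in db/m. Of the db/db libraries 3 lay well above all db/m libraries, and replicate 3 lay among them. The log2 fold change was 0.68 (SE 0.21), a 1.60-fold higher level (edgeR adjusted p = 0.296), and 0.44 (SE 0.22) without db/m replicates 1 and 3.

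Pex19 (ENSMUSG00000003464, chromosome 1, 172126755 to 172136493, mm10) is the chaperone that delivers membrane proteins to the organelle, where Pex3 receives it. It had 206, 170.4, 186 and 213 CPM in db/db, against 129, 155, 103 and 158 CPM in db/m. The groups did not overlap, and the log2 fold change was 0.51 (SE 0.16; edgeR adjusted p = 0.296). Without db/m replicates 1 and 3 it was 0.30 (SE 0.12; edgeR adjusted p = 0.368).

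The partners of Pex19 had smaller values and overlapping groups. Pex3 had 13.6, 14.0, 12.6 and 12.9 CPM in db/db, against 12.8, 13.1, 10.4 and 15.3 CPM in db/m, with a log2 fold change of 0.04 (95% interval -0.30 to 0.38). Pex16, a membrane protein of the same assembly step, averaged 7.17 ± 1.55 CPM in db/db and 5.77 ± 1.21 CPM in db/m (SD, n = 4 each; log2 fold change 0.31, interval -0.20 to 0.82). In Pex3 249 exonic bases are shared with a gene on the opposite strand.

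The genes of the import machinery all overlapped between genotypes. Of the receptors, Pex5, which binds the C-terminal signal of most matrix enzymes, had 25.9, 31.5, 31.2 and 34.5 CPM in db/db, against 30.0, 27.2, 24.2 and 29.8 CPM in db/m (log2 fold change 0.15, SE 0.13). Pex7, which binds the N-terminal signal of a few enzymes such as the Acaa1 thiolases and Phyh, had 25.8, 19.2, 20.1 and 24.4 CPM in db/db, against 18.1, 23.7, 9.51 and 19.8 CPM in db/m (0.34, SE 0.25). Again db/m replicate 3 was lowest for Pex7, and the log2 fold change without db/m replicates 1 and 3 was 0.04.

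The docking proteins Pex13 and Pex14 had log2 fold changes of -0.03 (95% interval -0.29 to 0.23) and 0.10 (-0.30 to 0.50). Pex13 ran from 38.8 to 46.3 CPM in db/db and from 40.8 to 48.4 CPM in db/m, and Pex14 from 16.2 to 19.1 CPM and from 11.6 to 20.7 CPM. An antisense gene shares 1776 of the 6272 exonic bases of Pex14 and holds 1170 counts beside 2828 for Pex14, so that value is uncertain.

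Pex2 and Pex10, subunits of the ubiquitin ligase that marks Pex5 for recycling, had log2 fold changes of -0.01 (95% interval -0.34 to 0.32) and 0.20 (-0.29 to 0.70). Pex2 averaged 40.5 ± 3.35 CPM in db/db and 40.8 ± 7.64 CPM in db/m, and Pex10 averaged 17.6 ± 4.75 CPM and 15.3 ± 3.00 CPM (SD, n = 4 each). Pex6, an ATPase that pulls the receptor out of the membrane, and Pex26, its anchor, had values of 0.07 (SE 0.18) and 0.17 (SE 0.14). Pex6 had 60.6, 66.7, 46.8 and 68.9 CPM in db/db, against 50.3, 51.7, 77.0 and 52.2 CPM in db/m. Here db/m replicate 3 was the highest of the 8 libraries, and without it the log2 fold change was 0.25 (SE 0.13).

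The oxidation and transport genes and the peroxins were set side by side. The median log2 fold change was 0.28 over 14 oxidation and transport genes, 13 of them positive, and 0.16 over 12 peroxins, 10 of them positive. The mean log2 CPM of the oxidation and transport genes was 5.42 ± 0.07 in db/db and 5.11 ± 0.21 in db/m, and that of the peroxins was 4.84 ± 0.12 and 4.62 ± 0.17 (SD, n = 4 each). Within a library, the oxidation genes exceeded the peroxins by 0.54, 0.60, 0.66 and 0.54 in db/db, against 0.55, 0.51, 0.41 and 0.49 in db/m. The genotypes overlapped in this difference, which averaged 0.58 ± 0.06 in db/db and 0.49 ± 0.06 in db/m. With Ech1 left out it was 0.24 ± 0.07 and 0.21 ± 0.04. No p is given, because the genes were chosen with earlier results of these data known.

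**Figure D3:**
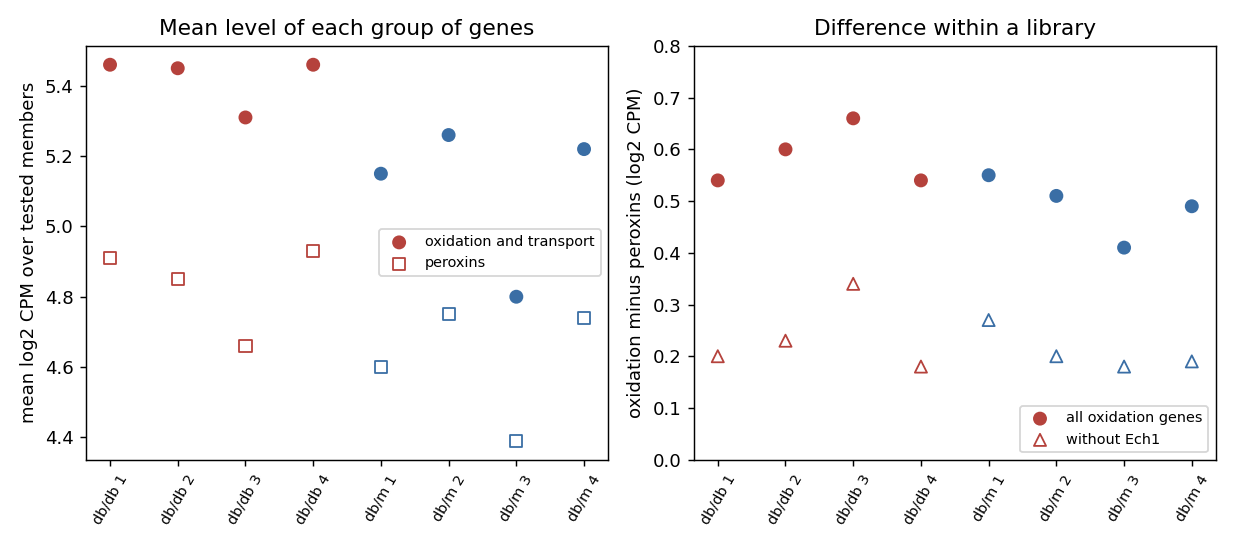
Left, mean log2 CPM of the 14 tested oxidation and transport genes (filled circles) and the 12 peroxins (open squares) in each library, db/db in red and db/m in blue. Right, their difference in each library, with all oxidation genes (circles) and without Ech1 (triangles). In db/m replicate 3 both levels are the lowest of the 8 libraries, at 4.80 and 4.39.

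Several values changed when db/m replicates 1 and 3 were left out, while Acox3, at 0.25 and then 0.27, and Crot, at 0.23 and then 0.20, changed little. Without replicate 1 alone the medians were 0.30 for the oxidation and transport genes and 0.16 for the peroxins. Without replicate 3 alone they were 0.21 and 0.11. Of the 26 tested genes, 16 had their lowest value in db/m replicate 3, as did 32.1% of all genes tested. Without db/m replicates 1 and 3, the median log2 fold change was 0.18 over the oxidation and transport genes and 0.07 over the peroxins, and 12 of 14 and 7 of 12 were positive, beside 50.4% of all genes. In that fit 4 of the 26 genes had an unadjusted p under 0.05 by edgeR, or 15.4%, against 10.7% of all genes, and 0 passed after adjustment, against 0.256%. The core cycle was positive in 6 of 6 genes, with a median of 0.22.

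**Figure D4:**
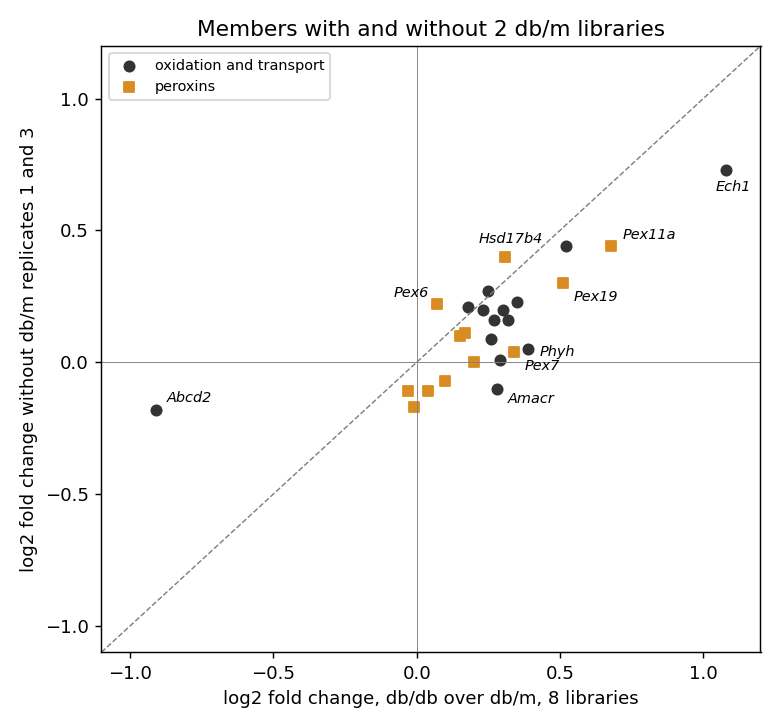
Log2 fold change (db/db over db/m) of each tested gene with all 8 libraries (horizontal axis) and without db/m replicates 1 and 3 (vertical axis), with the dashed line at equality. Abcd2 moves from -0.91 to -0.18, Ech1 from 1.08 to 0.73, and Amacr and Phyh come close to 0.

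Levels per kilobase of exon spanned a wide range. Ech1 was highest, with a mean of 427 CPM per kilobase in db/db and 201 CPM in db/m, followed by Phyh with 185 and 141 CPM, Scp2 with 54.0 and 43.2 CPM and Pex19 with 50.8 and 35.8 CPM. Of the tested genes Pex7 was the lowest, with 1.85 CPM per kilobase in db/db and 1.47 CPM in db/m. This rank depends on the length of all annotated exons, which for Pex7 was 12092 bases, the longest among the tested genes. Not scaled by length, Pex7 averaged 22.4 CPM in db/db and 17.8 CPM in db/m. The lowest tested gene was then Pecr, with 4.22 CPM in db/db and 3.45 CPM in db/m. The ranges per kilobase of Scp2 and Pex19 over the libraries overlapped within each genotype.

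The other peroxisomal genes, from lists chosen with earlier results of these data known, were mostly positive as well. Of 43 listed genes 34 passed the filter and 28 of them were positive, with a median log2 fold change of 0.22. By edgeR 0 passed after adjustment, 12 higher and 2 lower had an unadjusted p under 0.05, beside 5.12% and 7.84% of all genes, and DESeq2 called 5, all higher, beside 2.21%. With db/m replicates 1 and 3 left out, 21 of the 34 were positive, the median was 0.12, and 6, or 17.6%, had an unadjusted p under 0.05, beside 10.7% of all genes. Catalase (Cat), which removes the hydrogen peroxide that the oxidases make, had 343, 364, 255 and 382 CPM in db/db, against 175, 235, 218 and 224 CPM in db/m. The groups did not overlap, and the log2 fold change was 0.66 (SE 0.16; edgeR adjusted p = 0.206, DESeq2 adjusted p = 0.0134). Ephx2, an epoxide hydrolase of peroxisomes and cytosol, had the smallest p of these genes, with 195 ± 48.2 CPM in db/db and 102 ± 16.1 CPM in db/m (SD; 0.93, SE 0.20; edgeR adjusted p = 0.146). Without db/m replicates 1 and 3, Cat and Ephx2 had values of 0.55 and 0.79.

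Eci2, an enoyl-CoA isomerase, and Mlycd, the malonyl-CoA decarboxylase, had log2 fold changes of 0.70 (SE 0.17) and 0.78 (SE 0.21), and Acad11, an acyl-CoA dehydrogenase, 0.44 (SE 0.17). With those libraries left out the values were 0.51 for Eci2, 0.50 for Mlycd and 0.20 for Acad11, whose unadjusted p by edgeR was then 0.144. Of 13 tested genes on this further oxidation list 11 were positive, with a median of 0.42, and 0.20 without db/m replicates 1 and 3. For Pex11g, of the Pex11 family, the log2 fold change was 0.84 (SE 0.32), with no overlap of the groups. Its level was low, at 2.0 ± 0.581 CPM in db/db and 1.12 ± 0.228 CPM in db/m (SD, n = 4 each). Without db/m replicates 1 and 3 its log2 fold change was 0.77 (SE 0.41). Pex11g shares 1396 of its 3397 exonic bases with an annotated gene on the opposite strand that has 0 counts, so its value is uncertain.

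The 2 genes lower in db/db at an unadjusted p under 0.05 both serve ether lipid synthesis. Far1, the fatty acyl-CoA reductase that supplies its alcohols, had 29.6, 31.8, 34.0 and 27.2 CPM in db/db, against 52.3, 37.6, 52.8 and 35.4 CPM in db/m (log2 fold change -0.54, SE 0.16; edgeR adjusted p = 0.286). Agps, the alkyl-glycerone-phosphate synthase, named here after its value was seen, had -0.32 (SE 0.13), and -0.20 with an unadjusted edgeR p of 0.102 without db/m replicates 1 and 3. Gnpat, the acyltransferase of the same route, also named so, had 0.09 (SE 0.14), and -0.10 without db/m replicates 1 and 3. In Far1 the db/m libraries 1 and 3 were the highest, and without them the value was -0.26.

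Of the 6 genes for division and turnover 5 were positive, beside 47.7% of all genes, with a median of 0.11. Without db/m replicates 1 and 3, 3 of them were positive, beside 50.4% of all genes, with a median of 0.03. Usp30, a deubiquitinase of peroxisomes and mitochondria, had the only unadjusted p under 0.05 of these 6 genes, or 16.7% beside 13.0% of all genes, with a log2 fold change of 0.33 (SE 0.14). It was 0.24 without db/m replicates 1 and 3, and 0 of the 6 then reached that p by edgeR, beside 10.7% of all genes. Of 7 PPAR, PGC-1, RXR and ERR genes 6 were negative and 1 was positive, where 47.7% of all genes were positive. Ppara, which encodes PPAR-alpha and is named here after its value was seen, had 43.9, 28.8, 46.8 and 41.2 CPM in db/db, against 42.7, 49.4, 116.7 and 50.7 CPM in db/m. The groups overlapped, with db/m replicate 3 far above the rest. The log2 fold change was -0.69 (SE 0.31; edgeR adjusted p = 0.386), -0.24 without that library and -0.32 (SE 0.17) without db/m replicates 1 and 3. Ppard, a nuclear receptor of the same family as PPAR-alpha, had 38.5, 41.0, 38.8 and 43.8 CPM in db/db, against 53.9, 54.6, 45 and 53.2 CPM in db/m, with no overlap (-0.35, SE 0.11; edgeR adjusted p = 0.297). Its value without db/m replicates 1 and 3 was -0.42 (SE 0.11; edgeR adjusted p = 0.151).

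Mitochondrial beta-oxidation genes had a higher median than the peroxisomal ones. All 18 listed genes were tested and positive, and their log2 fold changes had a median of 0.80. Some of these values are uncertain, and Hadhb and Cpt1b are named here only for that reason. Gm13910, a pseudogene 99.8% identical to Hadhb, holds 443717 counts beside 65412 for Hadhb. Another annotated gene, Gm44502, shares 2744 of the 3372 exonic bases of Cpt1b, which has 541 counts. Acadvl, given below, shares 1151 of its 2686 exonic bases with a gene on the opposite strand. That gene has 1333 counts beside 33835 for Acadvl, whose value is thus also uncertain. Of the 18, 17 had an unadjusted p under 0.05, beside 13.0% of all genes, and 0 passed edgeR after adjustment. DESeq2 called 7, beside 2.21% of all genes, and limma-voom 5, beside 0.747%. Their median fell to 0.50 when db/m replicates 1 and 3 were left out, and 18 stayed positive. Slc25a20, the carnitine carrier, had a log2 fold change of 1.04 (SE 0.22), Decr1, a dienoyl-CoA reductase, 0.99 (SE 0.24), Acaa2, a thiolase, 0.93 (SE 0.21) and Acadvl, a very long-chain dehydrogenase, 0.72 (SE 0.17), beside 1.08 for Ech1. The peroxisomal and mitochondrial lists were compared by these values only, and the difference between them was not tested.

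**Figure D5:**
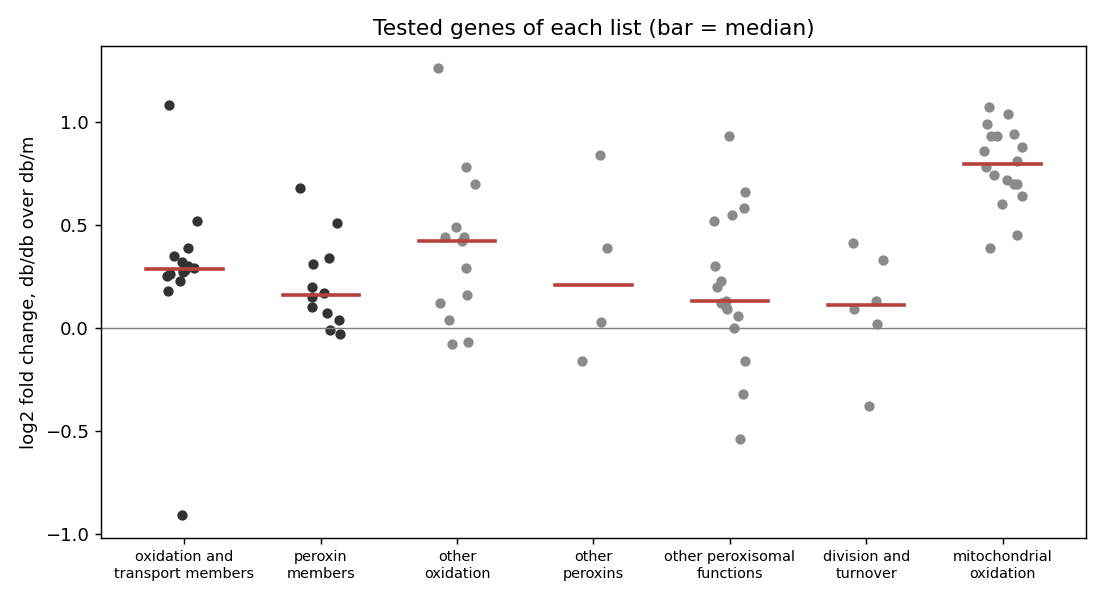
Log2 fold change (db/db over db/m, all 8 libraries) of every tested gene in each list, one point per gene, with the median as a red bar. The medians are 0.28 for the oxidation and transport genes, 0.16 for the peroxins and 0.80 for the mitochondrial oxidation genes.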

How the data were processed

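RNA sequencing covered 8 heart libraries. Per the labels' protocols, libraries were made with the NEBNext Ultra kit from total RNA. The authors deposited raw whole-number read counts, one row per Ensembl identifier, made against mm10 per the submitters' processing notes, with no scaling. Aligner, counter, annotation release and strand mode: not given in the sources used here. Rows that name no gene numbered 0.

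Symbols came from GENCODE M21 (55480 of 55573 identifiers matched). The test was edgeR 4.0.16 (R 4.3.3), after filterByExpr (minimum count 10, minimum total 15), TMM scaling, robust quasi-likelihood F tests and genotype as the single factor, two-sided, with Benjamini-Hochberg adjustment over 17411 genes and a threshold of 0.05. Group levels average log2 CPM over genes (prior count 2). Pseudogene copies were found with BLAST 2.17.0 (minimum identity 95%, minimum covered share 0.5). The procedure was tested on simulated data. The genes and lists were chosen with earlier results of these data known. Any of the 27 genes may be named, and of other lists up to 4 with an unadjusted p under 0.05. Alternatives were DESeq2 1.42.0, limma-voom (limma 3.58.1), other scalings and filters, a replicate block, added pseudogene counts and left-out libraries. At 19541757 to 22249911 counts a library, counting error leaves genes such as Hacl1 and Acaa1b imprecise. Some genes of the other lists are not reported here.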

Additional observations from a re-analysis of the deposited data

Results flagged for a closer look

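Of 52 groups of 4 libraries checked, 26 genes in each genotype, 1 held a library far from the other 3. In Pex6, db/m replicate 3 had 77.0 CPM, against 50.3 to 52.2 CPM in the other db/m libraries, a gap of 0.928 of the group's range. About 1 in 20 such groups would be marked by chance.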

How the results depend on the processing

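Over 17 alternatives, 424 of 442 values of single genes kept their direction and their side of the threshold. DESeq2 called 2 of the 26 genes and 5 other peroxisomal genes, beside 2.21% of all genes that it gave an adjusted p. By edgeR 0 of either were called, beside 0.00574% of all genes. An unadjusted p under 0.05 was reached by 5 genes in the main edgeR fit, against 13.0% of all genes. It was reached by 8 in DESeq2, against 14.8% of all genes, and by 8 in limma-voom, against 14.2%. With pseudogene counts added it was reached by 8. Leaving out 1 library at a time gave 0 to 0 genes called and 4 to 7 with an unadjusted p under 0.05. The medians were then 0.21 to 0.37 for oxidation and transport genes and 0.09 to 0.22 for peroxins. Without db/m replicate 3 the unadjusted count was 7, against 13.2% of all genes. For added pseudogene counts, the replicate block and the other single left-out libraries, the share over all genes is not given here. The direction turned in 6 genes, Pex2, Pex3, Pex13 and Pex14, which lay between -0.03 and 0.10 in all libraries, and Amacr and Pex10, at 0.28 and 0.20. Pex2 had 0.01 with no filter on low counts and 0.00 with pseudogene counts added. With limma-voom Pex3 had -0.07 and Pex14 -0.05. Without 1 library at a time Pex2 ran from -0.08 to 0.13, Pex13 from -0.07 to 0.02, Pex3 from -0.04 to 0.15 and Pex14 from -0.03 to 0.25. Without db/m replicates 1 and 3, Amacr had -0.10, Pex3 -0.11, Pex14 -0.07 and Pex10 -0.00. The cause was not tested. With the replicate number as a block 0 genes were called, 5 had an unadjusted p under 0.05, and Pex2 had 0.01, with medians of 0.32 and 0.15. Deviations of same-numbered libraries correlated at -0.09 to 0.06. These values show no pairing by number, but with 4 libraries a genotype they cannot exclude one.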
